A study of Mus musculus with 2 samples.

Results

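The genes described here are 10 regulators of cellular quiescence and stress resistance: the FoxO transcription factor genes Foxo1, Foxo3 and Foxo4, the mTOR brake genes Deptor, Sesn1 and Sesn3, the growth arrest gene Gadd45a, the repressor gene Bcl6, and the Krüppel-like factor genes Klf2 and Klf4. They were taken by symbol from 19505 named genes on the arrays, and all 10 were measured, each by a single probe set. They had been put together because FoxO targets appeared to run opposite to cell cycle genes in these same data. Their differences are therefore given as a description, with no test.

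Whole-transcript GeneChip arrays measured total RNA from mouse macrophages that were grown from bone marrow in M-CSF, a cytokine on which macrophages depend. The dose was 25 ng/mL, added at day 0 and renewed at day 3, and cells were used from day 5. One group had the genotype LysM (+);MC4RTB/TB, called LysM(+) below, and the other MC4RTB/TB, called TB/TB below, so both carried the MC4R TB allele on both chromosomes and differed in LysM. Each group was 1 array, and the labels give neither the number of animals behind it nor their age. The series title names suppression of aortic aneurysm and atherosclerosis through the melanocortin 4 receptor in monocytes as its subject. As background, a TB allele carries a block to transcription that Cre recombinase can excise, and LysM is the gene Lyz2, whose promoter often serves to express Cre in myeloid cells. Neither meaning is given in the labels. Mc4r itself read 4.45 in LysM(+) and 4.57 in TB/TB on the log2 scale, no brighter than background control probe sets, and gives no check of the genotypes. Lyz2 read 18.86 in LysM(+) and 19.04 in TB/TB, a difference of -0.18, and the labels do not say how the genotype would alter it.

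FoxO proteins are transcription factors that growth factor signalling switches off: the kinase AKT phosphorylates them, 14-3-3 proteins hold them in the cytoplasm, and their targets fall silent. When growth factor input is low they return to the nucleus and turn on genes for cell cycle arrest, antioxidant defence, autophagy and restraint of mTOR, the kinase that couples nutrients to growth. In blood cells FoxO factors are known for keeping stem cells and resting lymphocytes quiescent. BCL6 and the Krüppel-like factors KLF2 and KLF4 are transcription factors with roles in lymphocyte quiescence and in restraining inflammatory genes of myeloid cells.

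Sequence at the start sites is shown first for Gadd45a, Foxo3 and Bcl6, which are among the genes with the widest differences, and for Sesn1, which held the canonical FoxO element. RefSeq promoter windows on GRCm38.p6, which run from 250 bases before to 50 after a start site, were matched by gene ID to 8 of the 10 genes, with 10 windows in all because Sesn1 and Bcl6 have 2 each. Foxo4 and Deptor had no match. For Gadd45a (chr6:67037408-67037657, minus strand), Foxo3 (chr10:42276696-42276945, minus strand) and Bcl6 (chr16:23988853-23989102, minus strand, the more upstream start) the 250 bases before the start site are printed 5′ to 3′ along the gene, with capitals for every match, on either strand, to one of the motifs named below.
Gadd45a: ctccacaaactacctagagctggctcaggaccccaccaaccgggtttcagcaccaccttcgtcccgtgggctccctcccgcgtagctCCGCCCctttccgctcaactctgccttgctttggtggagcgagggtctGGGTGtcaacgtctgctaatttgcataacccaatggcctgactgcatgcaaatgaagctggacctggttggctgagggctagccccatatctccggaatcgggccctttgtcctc
Foxo3: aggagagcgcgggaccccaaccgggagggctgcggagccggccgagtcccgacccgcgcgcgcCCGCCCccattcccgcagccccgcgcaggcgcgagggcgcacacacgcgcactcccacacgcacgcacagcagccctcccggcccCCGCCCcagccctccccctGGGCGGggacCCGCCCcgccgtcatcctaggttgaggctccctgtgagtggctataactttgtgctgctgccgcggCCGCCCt
Bcl6: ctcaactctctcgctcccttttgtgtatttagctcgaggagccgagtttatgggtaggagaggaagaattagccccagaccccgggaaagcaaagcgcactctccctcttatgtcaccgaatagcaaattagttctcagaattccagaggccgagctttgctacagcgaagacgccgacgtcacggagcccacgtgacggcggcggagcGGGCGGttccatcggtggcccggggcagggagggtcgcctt

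The motifs searched were GTAAACA and CAAAACA, elements known to bind FoxO proteins, CACCC and CCGCCC, elements of the kind Krüppel-like and Sp factors bind, and TTCCTAGAA, a BCL6-type element, each on both strands. No motif contains another, although neighbouring matches can overlap by a few bases. GTAAACA was found in 1 of the 8 genes, Sesn1, whose 30 bases around it (chr10:41810585-41810614, plus strand) are shown with the match in capitals, read here on the opposite strand as TGTTTAC.
Sesn1: gaaccttctacTGTTTACcagccttttggg

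That match begins 23 bases into the transcribed side of the start site, so it is not among the 250 bases before the start, and 3.65% of all 32851 windows hold the element. The second FoxO element, CAAAACA, was in 0 of the 8 genes, against 6.28% of all windows and 1.93% of the 9690 windows with at least 60% G and C, in which the share for GTAAACA was 1.49%, and TTCCTAGAA likewise in 0, against 0.411%. CACCC was in the windows of 5 of the 8 genes (Gadd45a, Klf2, Sesn1, Sesn3 and Bcl6), against 57.5% of all windows and 70.1% of those rich in G and C. CCGCCC was in all 8, against 35.7% and 80.6%. The genes share that base composition: 9 of their 10 windows had 60% or more G and C, against 29.5% of all windows, with a median of 64.7% against 52.7%. Among the genes past 1.5-fold, the windows of Gadd45a and Foxo3 had 61.0% and 75.0%, and those of Bcl6 62.7% and 51.7%. These matches describe the letters in the windows and say nothing of binding.

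Among the 10 genes, 3 were at least 1.5-fold lower in LysM(+) macrophages, 1 was at least 1.5-fold higher and 6 were not as far apart. Deptor, Gadd45a and Foxo3 were the lower ones, at 2.36-fold, 2.19-fold and 1.73-fold, and Bcl6 was the higher one, at 2.05-fold. To be counted, a gene also needed its brighter value to reach the brightness floor, a log2 value of 6.12, which is the median of the named probe sets. By this rule 5.16% of the 10137 genes that reached the floor were lower and 10.9% were higher in LysM(+), or 16.1% in either direction. At 2-fold, which left Deptor, Gadd45a and Bcl6, these shares were 0.858% and 3.25%. The genes were chosen from this same contrast, so nothing is read from that comparison. The same holds for the shares set beside single members below. By any amount 6 genes were lower and 4 higher, and the median difference of the 10 was -0.07 on the log2 scale, against -0.0062 for all named genes and 0.07 for those that reached the floor. All differences are LysM(+) minus TB/TB in log2 units, and with 1 array per group none has a replicate check or an error.

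**Figure D1:**
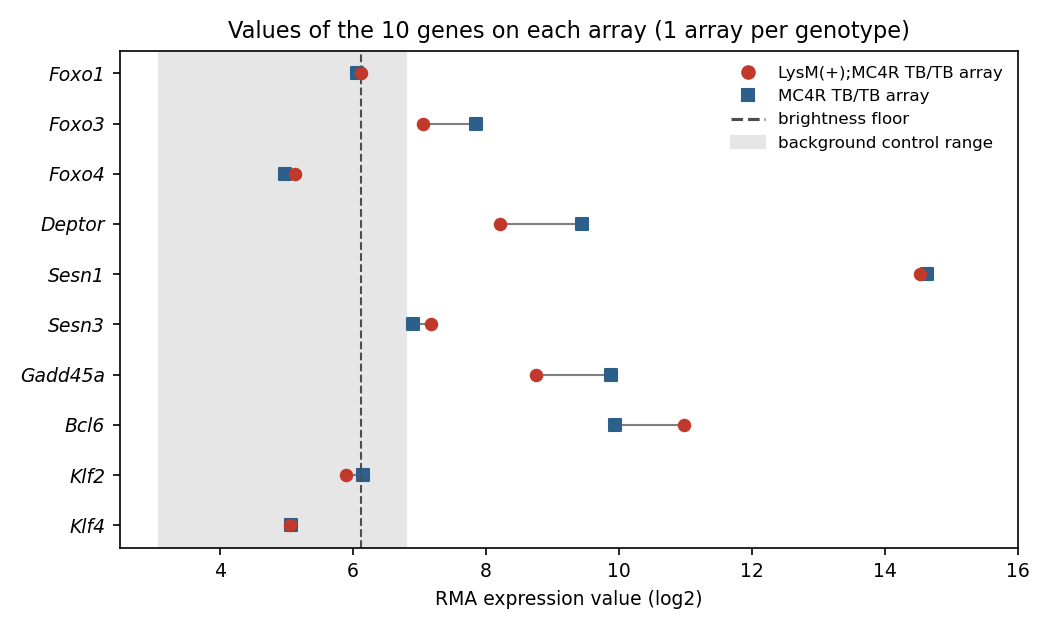
Log2 RMA expression value (x axis) of each of the 10 genes (y axis) on the LysM(+) array (circles) and the TB/TB array (squares), with the brightness floor of 6.12 as a dashed line and the range of the background controls, 3.09 to 6.81, in grey. Deptor, Gadd45a and Foxo3 sit lower and Bcl6 higher on the LysM(+) array, and Foxo1, Foxo4, Klf2 and Klf4 lie inside the background range on both.

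The 10 genes had been grouped for running opposite to the cell cycle in this same contrast, so the following is a description of that choice. All 26 measured genes of a cell cycle list were at least 1.5-fold higher in LysM(+), by 0.84 to 4.06 log2 units with a median of 1.92. The share over all genes that reached the floor, as all 26 did, was 10.9%. On both arrays 23 of the 26 reached it, and Cdc20, a mitotic exit gene at 6.21 and 4.28, was within the background range throughout. In TB/TB alone so were Ccna2 (6.40), Cdk1 (5.22), Bub1 (5.37), Aurka (6.66), Birc5 (6.50), Ccne2 (6.36) and Top2a (6.75), which leaves their folds inexact. Mki67, the proliferation marker, had 13.66 in LysM(+) and 10.86 in TB/TB. The members Deptor, Gadd45a and Foxo3 had the opposite sign, whereas Bcl6 had the same sign as the cell cycle genes. The other 6 members, from Klf2 at -0.26 to Sesn3 at 0.28, lay near 0 by comparison.

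**Figure D2:**
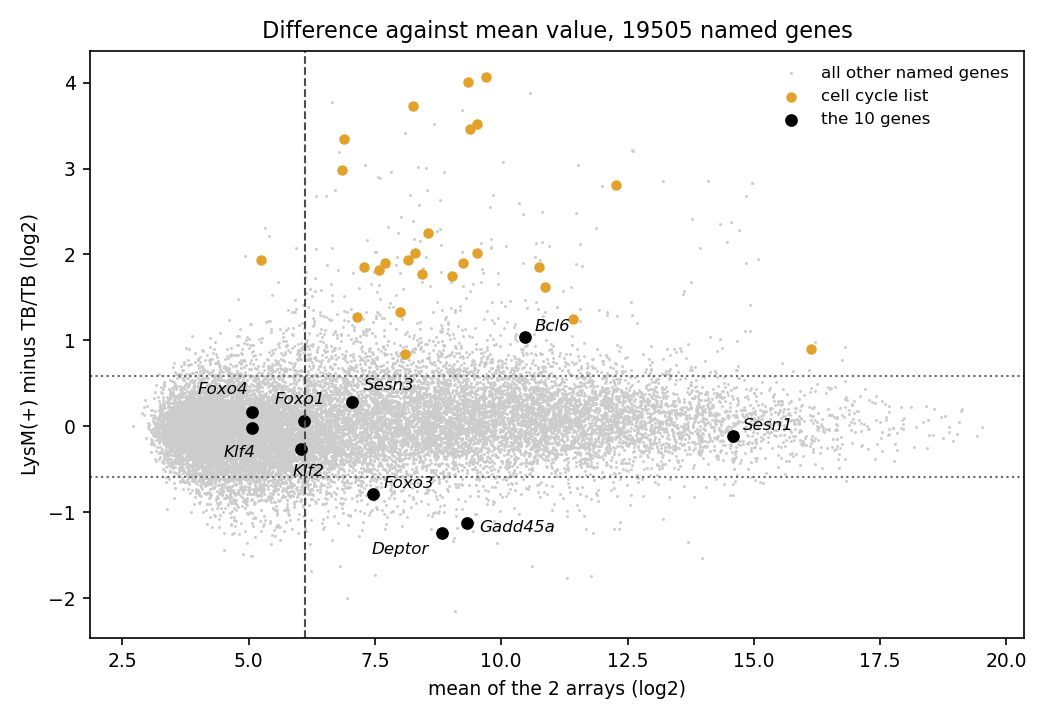
Difference between the arrays (LysM(+) minus TB/TB, log2, y axis) against the mean of both arrays (log2, x axis) for all 19505 named genes in grey, the cell cycle list in orange and the 10 genes in black with their names. Dotted lines mark 1.5-fold and the dashed line the floor of 6.12. Deptor and Gadd45a lie at the lower edge of the cloud, and every measured gene of the cell cycle list lies above the upper dotted line.

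Of the FoxO factor genes, Foxo3 was the only one measured above background on both arrays. Its value was 7.06 in LysM(+) and 7.85 in TB/TB, a difference of -0.79. Among the genes that reached the floor, 2.15% were lower in LysM(+) by as much or more. FOXO3 is the family member best known for inducing arrest and death genes when AKT is inactive.

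Foxo1, which controls glucose metabolism genes in liver and homing genes in lymphocytes, had 6.12 in LysM(+) and 6.06 in TB/TB. Foxo4 had 5.14 and 4.98, and Foxo6, the remaining family member and mainly a brain gene, had 5.18 and 5.11. Foxo1, Foxo4 and Foxo6 were no brighter than the 23 background controls, which spanned 3.09 to 6.81, on either array. Whether they differed was not measurable here, and the arrays do not show that they are absent.

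Deptor had the widest difference of the 10 genes. DEPTOR is a subunit of both mTOR complexes that inhibits the kinase. The gene had 8.21 in LysM(+) and 9.45 in TB/TB, a difference of -1.24, and 20 of the 10137 genes that reached the floor, Deptor among them, were as much or more lower, or 0.197%. Both values were above every background control. Of 1459 genes whose mean value was within 0.5 log2 units of Deptor's, 4.11% were at least 1.5-fold lower and 13.4% at least 1.5-fold higher in LysM(+).

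The sestrins, stress proteins that restrain mTOR complex 1 when leucine is scarce, did not follow Deptor. Sesn1, a target of both p53 and FoxO factors, had high values on both arrays, 14.53 on LysM(+) and 14.64 on TB/TB, a difference of -0.11. Sesn3, the sestrin most often described as a FoxO target, had 7.18 and 6.91, a difference of 0.28, so its sign was opposite to that of Deptor. Sesn2, which belongs to the same family and responds to amino acid shortage, had 6.09 and 6.19, within the background range.

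Gadd45a encodes a small stress protein that binds the cell cycle kinase CDK1 and the replication clamp PCNA, and both p53 and FoxO factors induce it. It had 8.75 in LysM(+) and 9.88 in TB/TB, a difference of -1.13, and 47 of the genes that reached the floor, or 0.464%, were as much or more lower. Its relative Gadd45b, which NF-kB and TGF-beta signals induce, was also lower in LysM(+), with 9.31 and 10.06 and a difference of -0.74. Gadd45g, the remaining family member, differed by -0.13, with 8.0 and 8.13. In the sestrin and GADD45 families together, 2 of 6 genes were at least 1.5-fold lower and 0 as much higher, with a median difference of -0.12. Over all genes that reached the floor, as all 6 did, the shares were 5.16% and 10.9%. Gadd45a, among the 2, was chosen from this contrast.

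Among the members past 1.5-fold, Bcl6 alone was higher in LysM(+). The gene encodes a zinc finger repressor that keeps germinal centre B cells from arrest and death and that damps inflammatory genes in macrophages. It had 10.98 in LysM(+) and 9.94 in TB/TB, a difference of 1.04, and 3.08% of the genes that reached the floor were higher by as much or more. Of its measured corepressor genes and its paralogue Bcl6b none passed 1.5-fold (0 of 4): Bcor differed by -0.53, Bcorl1 by -0.01 and Hdac3 by 0.04, and Bcl6b, within the background range at 4.52 and 4.90, by -0.38. Among 15 measured genes known as BCL6 targets, 2 were at least 1.5-fold higher and 0 as far below, with a median of 0.08. Over all genes that reached the floor, as 13 of the 15 did, the shares were 10.9% and 5.16%. The higher ones were Chek1, at 0.70, and Atr, at 0.67, both DNA damage checkpoint kinases. Atr lay within the background range on both arrays, with 6.58 and 5.91. The targets that encode inflammatory mediators were closer together: Ccl2 differed by -0.06, Cxcl10 by -0.36 and Ccl7 by 0.38.

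Klf2 and Klf4 were too dim to compare. Klf2, which FoxO1 induces in lymphocytes and which keeps T cells quiescent, had 5.90 in LysM(+) and 6.16 in TB/TB, a difference of -0.26, and it reached the floor on the TB/TB array alone. Klf4, which promotes monocyte differentiation, had 5.06 and 5.08. Klf4 changed sign with the scaling, to 0.07 after quantile normalization or loess. Of the 13 measured genes known as targets of KLF2 or KLF4, S1pr1 was higher and Itgb7 lower by at least 1.5-fold, and the median difference was 0.12. Over all genes that reached the floor, as 7 of the 13 did, 10.9% were higher and 5.16% lower. S1pr1, a receptor that guides lymphocyte exit from tissue and a target of both FoxO1 and KLF2, had 9.59 and 8.73. Itgb7, an integrin subunit that directs lymphocytes to the gut, had 8.09 and 9.0.

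The other Krüppel-like factor genes gave 3 higher and 0 lower members at 1.5-fold out of 15, against 10.9% and 5.16% of all genes that reached the floor. The denominators differ, because only 10 of all 17 genes of the family, Klf2 among them, reached the floor. Klf10, an early TGF-beta response gene that restrains proliferation, had 8.86 in LysM(+) and 7.89 in TB/TB, a difference of 0.97. Klf9 (6.73 and 6.10) and Klf11 (6.27 and 5.66) were the others, and both lay within the background range on each array, which leaves their folds inexact, and neither is counted with the floor at the highest background control. The lowest difference of the 15 was that of Klf3, a repressor of the family, with 10.00 and 10.51 and a difference of -0.51, which passes 1.5-fold after quantile normalization or loess. Klf6, at 13.87 and 14.02, and Klf13, at 10.77 and 10.87, differed by -0.16 and -0.09.

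**Figure D3:**
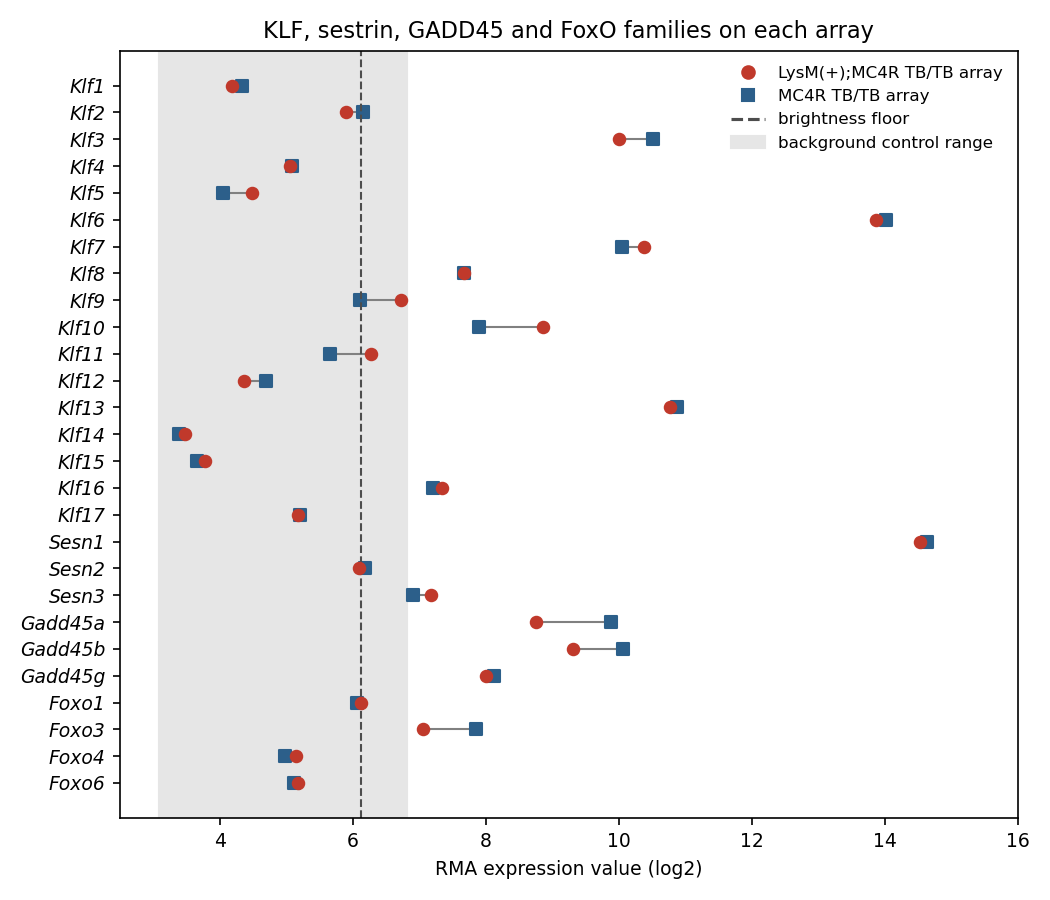
Log2 RMA expression value (x axis) on the LysM(+) array (circles) and the TB/TB array (squares) for all measured Krüppel-like factor, sestrin, GADD45 and FoxO genes, with the floor of 6.12 dashed and the background control range, 3.09 to 6.81, in grey. Gadd45a, Gadd45b and Foxo3 are lower and Klf10 is higher on the LysM(+) array by more than 1.5-fold, while many of the Krüppel-like factor genes lie in the grey band.

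Upstream of FoxO, genes of the insulin and growth factor route to AKT were about evenly split. Of 20 measured genes, 1 passed 1.5-fold upward and 2 downward, with a median difference of 0.01. Over all genes that reached the floor, as 19 of the 20 did, the shares were 10.9% and 5.16%. Igf1r, the receptor for insulin-like growth factor, had 7.06 in LysM(+) and 8.0 in TB/TB, a difference of -0.94. Pik3cd, a leukocyte PI3-kinase subunit, was lower by 0.61 in LysM(+), with 8.46 and 9.08, and Pik3cb, another catalytic subunit, was higher by 0.60, with 12.45 and 11.85. Pik3cb was under 1.5-fold after quantile normalization or loess. Akt1 differed by 0.05, Akt2 by 0.45, the phosphatase gene Inpp5d by -0.17 and the FoxO target Irs2, which encodes an insulin receptor substrate, by -0.29.

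Among genes whose proteins act on FoxO directly, Skp2 had the widest difference. Of 17 measured genes, 16 of which reached the floor, 2 passed 1.5-fold upward, against 10.9% of all genes that reached the floor, and 0 downward. By any amount 13 were higher, a count of 12 after quantile normalization and 11 after loess, while 5790 of the 10137 genes that reached the floor were higher. The median difference was 0.30. Skp2, which encodes a ubiquitin ligase subunit that marks FOXO1 and the inhibitor p27 for destruction, had 9.79 in LysM(+) and 8.67 in TB/TB, a difference of 1.12. Skp2 is itself cell cycle regulated. Ywhah, a 14-3-3 gene, had 15.69 and 15.10, and was under 1.5-fold after quantile normalization or loess. The 6 measured genes of the 14-3-3 family whose names begin with Ywha all had positive differences, from 0.22 for Ywhae to 0.59 for Ywhah. The deacetylase gene Sirt1 differed by -0.03, and the acetyltransferase genes Ep300 and Crebbp by -0.32 and -0.23.

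Of the mTOR complex and inhibitor genes, only Deptor passed 1.5-fold. Leaving out the members Deptor, Sesn1 and Sesn3, 0 of 18 measured genes did so, Sesn2 among them. Over all genes that reached the floor, as 17 of the whole list of 21 did, 16.1% passed it in either direction. The differences of the 18 ran from -0.48 to 0.57, with a median of 0.09. Mtor differed by 0.21, Rptor by 0.23, Rictor by -0.07, Tsc1 by -0.15 and Tsc2 by 0.05. The widest were Depdc5, a subunit of the GATOR1 complex that inhibits mTOR complex 1, and Rheb, the GTPase that activates it, both at 0.57. Ddit4, another stress-induced mTOR inhibitor gene, lay within the background range, at 4.89 and 5.06.

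Most other known FoxO targets were less than 1.5-fold apart. Of 36 measured genes, 2 were at least 1.5-fold lower, 1 was as much higher and 33 were not called. Over all genes that reached the floor, as 29 of the 36 did, 5.16% were lower and 10.9% higher. By any amount 24 of the 36 were lower and 12 higher, and 23 were lower after quantile normalization or loess. Of all 19505 named genes 9892 were lower, and of the 10137 that reached the floor 4347 were lower. The median difference was -0.09, against -0.0062 for all named genes and 0.07 for those that reached the floor. The lower ones were Gadd45b and Fbxo32, the muscle atrophy ubiquitin ligase gene, at 6.43 in LysM(+) and 7.27 in TB/TB; Fbxo32 in LysM(+) was within the background range. The higher one was S1pr1. The classical targets that stop the cell cycle showed small differences of either sign: Cdkn1b, which encodes the CDK inhibitor p27, differed by 0.15, Cdkn1a, which encodes p21, by -0.12, Ccng2 by 0.24 and Rbl2 by -0.28. The death gene Bcl2l11 differed by 0.07. The antioxidant genes Sod2, Cat and Prdx3 differed by 0.32, -0.09 and 0.58, and Prdx3 passes 1.5-fold after centring. The autophagy genes Gabarapl1, Ulk1, Atg12 and Map1lc3b differed by -0.28, -0.37, -0.02 and 0.20.

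**Figure D4:**
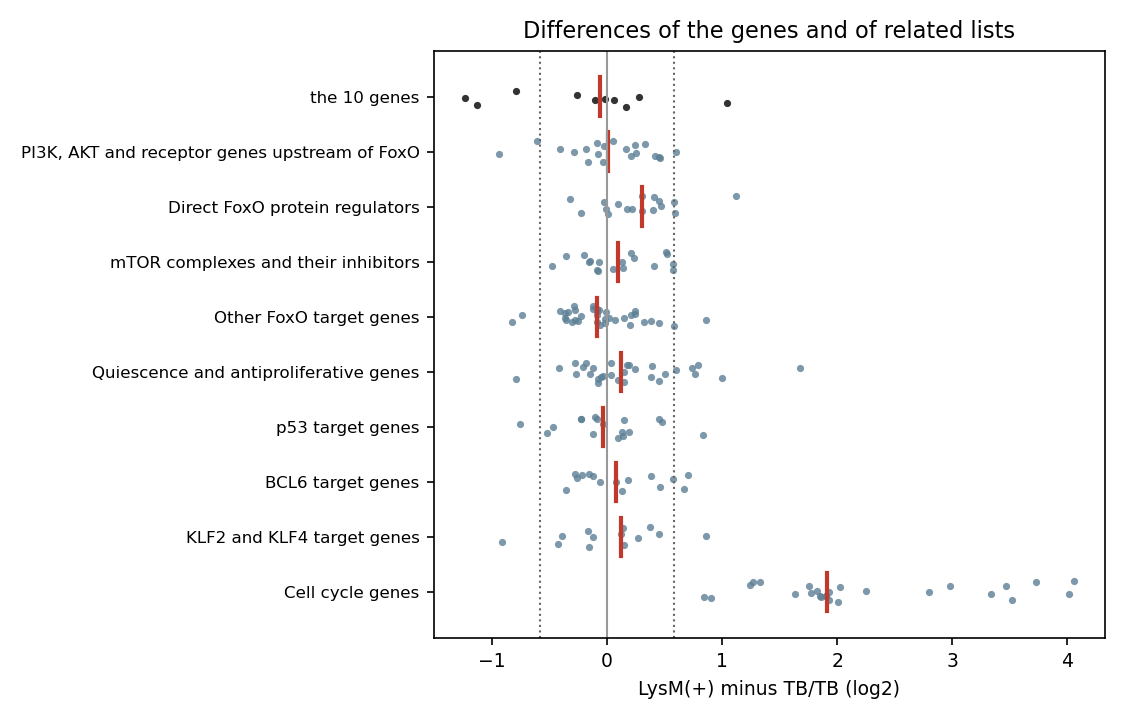
Difference between the arrays (LysM(+) minus TB/TB, log2, x axis) for the 10 genes and for the measured genes of 9 related lists, leaving the 10 genes out of the lists; each dot is 1 gene, the red bar is the median and dotted lines mark 1.5-fold. The list medians other than that of the cell cycle lie between -0.09 and 0.30, and the cell cycle list lies wholly to the right of 1.5-fold, with a median of 1.92.

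A wider list of quiescence and antiproliferative genes went both ways. Of 30 measured genes, 5 passed 1.5-fold upward in LysM(+) and 1 downward, against 10.9% and 5.16% of all genes that reached the floor. Of the 30, 26 reached it. The median difference was 0.12, against 0.07 for all genes that reached the floor. The higher ones were Rbl1, which encodes the pocket protein p107, at 9.85 in LysM(+) and 8.17 in TB/TB, Lin54, at 10.81 and 9.81, Lin9, at 9.62 and 8.89, Tfdp1, at 12.19 and 11.40, and the CDK inhibitor gene Cdkn2d, at 7.65 and 7.05. Rbl1, Lin54, Lin9 and Tfdp1 encode parts of the DREAM and MuvB complexes or their partners, which repress cell cycle genes in resting cells and in other forms activate them in dividing cells. Lin9 and Cdkn2d were chosen after their values were seen, and Cdkn2d was under 1.5-fold after loess. Tob1, an antiproliferative gene active in resting T cells, was the lower one, at 6.23 and 7.02, the former within the background range. The p53 targets other than Sesn1 and Gadd45a had 0 higher and 1 lower member at 1.5-fold out of 17, with a median of -0.04. The shares over all genes that reached the floor were again 10.9% and 5.16%, and 13 of the whole p53 list of 19 reached it. The lower p53 target was Fas, the death receptor gene, at 6.50 and 7.26, with the LysM(+) value within the background range.

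Macrophage marker genes were well measured on both arrays, and some neutrophil marker genes were bright as well. All 10 measured macrophage markers reached the floor on both arrays and 0 differed by 1.5-fold, against 16.1% of all genes that reached the floor. Mertk, at -0.57, does so after quantile normalization or loess. Adgre1, which encodes F4/80, had 17.01 in LysM(+) and 17.24 in TB/TB. Of the neutrophil markers, 4 of 11 (Ltf, Retnlg, Elane and Cxcr2) were at least 1.5-fold higher in LysM(+), with Cxcr2, at 6.74 and 6.03, within the background range on both arrays. Over all genes that reached the floor, as 10 of the 11 did, 10.9% were as much higher. Csf3r and Mpo went the other way, at -0.57 and -0.30, and Csf3r is past 1.5-fold after quantile normalization or loess. The median difference of the neutrophil list was 0.43, and its summed log2 value was 118.9 in LysM(+) and 113.5 in TB/TB. In that list Ngp (16.32 and 15.92), Lcn2 (15.80 and 15.37), S100a9 (13.35 and 12.85) and S100a8 (13.21 and 12.92) were bright on both arrays. Camp (5.87 and 5.82) was within the background range. The T and B cell list reached the floor in 2 of 10 genes, the endothelial list in 3 of 9, the progenitor list in 3 of 9 and the stromal list in 5 of 9, with median differences between -0.19 and 0.01. Members of these lists past 1.5-fold and lower in LysM(+) were Vwf (7.27 and 8.18), an endothelial gene, and the stromal genes Col1a2 (8.54 and 9.14) and Postn (6.88 and 7.47). Procr (7.61 and 6.61), listed for progenitors, was the higher one, with its TB/TB value within the background range. Of all genes that reached the floor, 5.16% were as much lower and 10.9% as much higher. By any amount 4 of the 9 stromal genes were higher and 5 lower. Postn is under 1.5-fold after centring or quantile normalization. The T and B cell genes that reached the floor were Il7r (14.44 and 14.82) and Cd4 (9.97 and 10.19). In the same list Cd3e (3.66 and 4.11) and Cd79a (4.24 and 4.29) were within the background range. So were the endothelial marker Cdh5 (4.07 and 4.60) and the progenitor marker Kit (5.41 and 5.56). Meis1 (7.47 and 7.05), also listed for progenitors, was above that range. The part of the marker genes and of the cell cycle list in the differences of Deptor, Gadd45a, Foxo3 and Bcl6 was not tested. In bulk RNA, fewer cells of a type and less RNA per cell cannot be told apart, and with 1 array per genotype the genotype and the culture cannot be told apart either.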

How the data were processed

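Per the submitters' processing notes, the authors used RMA (robust multi-array average) and Affymetrix Expression Console, and the deposited table holds log2 expression per probe set. Versions and the genome build are not stated there. Base 2 is read from the method's name; values up to 19.5 are above the usual range of RMA, and folds, though not directions, rest on that base. The platform annotation gave 1 symbol to 19572 of 28846 probe sets. All 19572 found their Entrez ID in the RefSeq gene table (GRCm38.p6), used for symbols, and probe sets of one gene were averaged. With 1 array per group no test was made. Genes were counted at 1.5-fold with the brighter value at the floor. The counting rule was checked on simulated data. The 10 genes and the 19 lists beside them (284 genes, 261 measured) were chosen with earlier results of these data known. Genes named are the 10, Mc4r, Lyz2, the other members of their families, and up to 4 of the widest counted genes of each list. All others were chosen after their values were seen. Every measured listed gene entered the counts and median of its list, whether or not it is named. Listed genes that were not measured entered none. Alternatives were centring, quantile normalization, loess with span 0.4 (statsmodels 0.14.6), the brightest probe set, other floors and 2-fold. Protein sequences were not used here. Promoter motifs were exact matches in RefSeq windows of 300 bases.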

Additional observations from a re-analysis of the deposited data

How the results depend on the processing

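No paired analysis was possible because each group had 1 array, so nothing could be left out either. Deptor, Gadd45a, Foxo3 and Bcl6 kept their direction and stayed past 1.5-fold under centring, quantile normalization and loess. They were also still counted with a floor at the highest background control or on the dimmer value. Using the brightest probe set or no floor could not drop them, because each has a single probe set and removing a floor only adds genes. At 2-fold Foxo3 was no longer counted. Of 40 member differences under the 4 changes of scaling or probe set choice, 38 kept sign and side, and Klf4 changed sign in the other 2. Many of these could hardly move. The brightest probe set left all 10 genes as they were, and centring removed a median difference of only -0.0062. Over all genes, 329 were higher and 87 lower at 2-fold, against 1106 and 523 at 1.5-fold, and without a floor 1075 were lower. The share of calls that were higher went from 67.9% to 79.1% at 2-fold and to 55.9% without a floor. The GTAAACA match of Sesn1 was lost, leaving 0, when only the 250 bases before the start were searched. Dimness limits Foxo1, Foxo4, Klf2 and Klf4, which were within the background range on both arrays.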
